A study of Mus musculus with 20 samples.

Results

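The genes described here take fatty acids into the muscle fibre and oxidise them in its mitochondria, together with genes that use acetate and ketone bodies. They are a list of 36 genes, and 34 of them had a probe set with a single gene symbol among the 19938 genes tested. Acsl1 and Cpt1b were not analysed here. They were measured in gastrocnemius muscle of adult male C57BL/6 mice on 20 Affymetrix mouse gene arrays, 5 in each of 4 groups. NCoR1-MKO were mice lacking the corepressor NCoR1 in muscle, and CON were their controls, with no genotype stated in the labels. PGC-1alpha-mTg were mice with a muscle-specific PGC-1alpha transgene, and WT were their wild-type controls. The labels do not name the promoter of the transgene or the driver of the deletion. The comparisons ask how far loss of a corepressor and gain of a coactivator change the transcripts of this pathway, each model being set against its own controls.

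Fatty acids reach the fibre after lipoprotein lipase frees them from circulating triglyceride, cross the membrane with the help of CD36 and the transport proteins, and are joined to coenzyme A. Carnitine carries the acyl groups into the mitochondrion, where a repeating cycle of dehydrogenation, hydration, a second dehydrogenation and thiolysis shortens them. Electron transfer flavoprotein passes electrons from the first step to ubiquinone. In muscle many of these genes are known targets of PPAR and estrogen-related receptors, which PGC-1alpha coactivates, while NCoR1 is recruited by nuclear receptors to repress transcription.

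Values are RMA expression on the log2 scale, where a step of 1 is a doubling, and the precision is limited by the 5 arrays of a group. Changes are log2 differences ± SE, tested in limma with Benjamini-Hochberg adjustment over all 19938 genes, and a gene is said to have risen or fallen when its adjusted p is under 0.05. Nothing in the labels ties an array to a mouse of its own, and the p-values therefore reflect the spread among samples that may differ in technical ways alone. Arrays of a group correlated at 0.9924 to 0.998, and PGC-1alpha-mTg 5 correlated least with the others of its group (mean r = 0.9942). The skeletal muscle markers were bright in every group, with group means of up to 14.01, as the tissue label implies. The NCoR1-MKO label could not be checked, since Ncor1 was not analysed here, and Ppargc1a rose by 1.83 ± 0.066 in PGC-1alpha-mTg. The 2 cohorts appear to have been normalized apart, so no level is compared between them.

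Extra PGC-1alpha went with more transcript for most measured genes of the route, with Lpl, Cpt1a, Bdh1 and Acss1 not called. Loss of NCoR1 went with small rises at a few of its steps. In PGC-1alpha-mTg 30 of 34 genes rose, which is 88.2% of them beside 11.9% of all genes tested, and 0 fell, where 16.1% of all genes did. At an unadjusted p under 0.05 the limma counts were 32 higher and 0 lower, and over all 19938 genes 3376 higher and 4006 lower. The median change was 0.58, or 1.5-fold, against 0.018 over all genes. In NCoR1-MKO 8 of 34 genes rose, 23.5% beside 1.31% of all genes tested, and Acss1 fell, where 1.32% of all genes fell and 2.63% changed in either direction. At an unadjusted p under 0.05 in limma 16 were higher and 1 lower there, and over all 19938 genes 1313 higher and 1043 lower. The median change was 0.14, or 1.10-fold, against 0.0014 over all genes, and 27 of the 34 changes were positive. All 8 genes that rose in the knockout also rose in the transgenic mice. The lists were drawn up with earlier results of these data known. In bulk muscle, more RNA per cell and more cells of a type cannot be told apart.

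**Figure D1:**
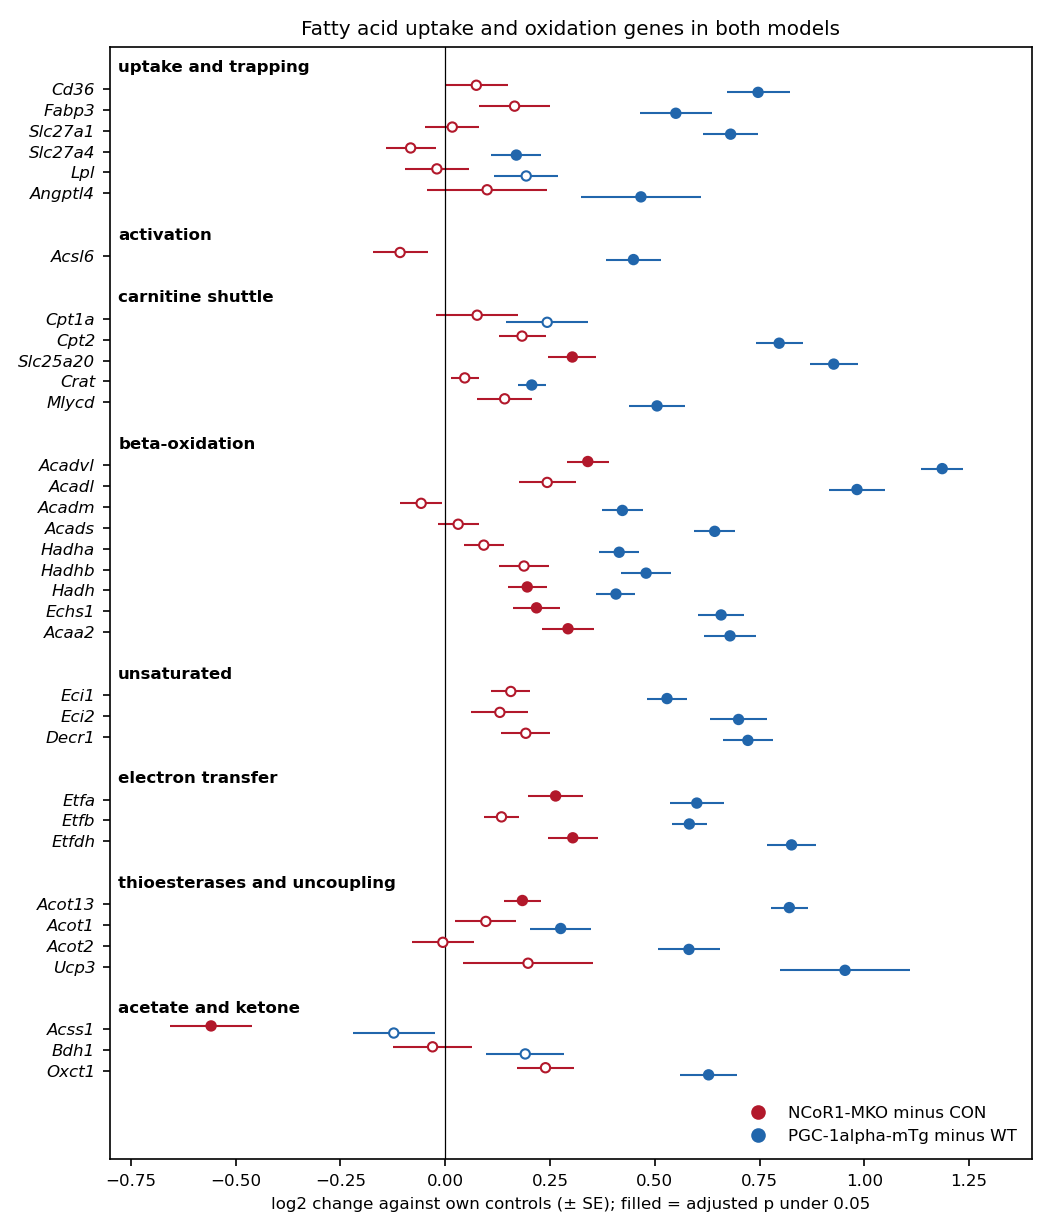
Log2 change of each gene against its own controls (horizontal axis, ± SE, n = 5 arrays a group), ordered by role. Red points are NCoR1-MKO minus CON and blue points PGC-1alpha-mTg minus WT, filled where the adjusted p is under 0.05. Every blue point lies to the right of the red point of the same gene, and Acss1 is the gene that fell in the knockout.

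The separation of single arrays followed the same order. In PGC-1alpha-mTg 28 of the 34 genes had all 5 arrays above all 5 WT arrays, where 8.72% of all genes did, and 0 had all of them below (11.2% of all genes). In NCoR1-MKO 7 genes lay wholly above CON (2.21% of all genes) and Acss1 lay wholly below (1.96%). The knockout count of 8 rises depended on the arrays. It was 4 without CON 3 or without NCoR1-MKO 3, 5 without CON 4, CON 5 or NCoR1-MKO 1, and up to 10 without another single array. It was 11 without the dimmest 40 percent of genes and 15 with a trended and robust prior. Acadvl, Slc25a20, Acaa2 and Etfdh kept their calls whichever array was left out, as did the fall of Acss1. With only the 10 arrays of that cohort in the fit 3 rises were called, since Hadh, Echs1, Acaa2, Etfa and Acot13 then missed the threshold (adjusted p = 0.0576 to 0.113).

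Promoter windows of the genes were read from RefSeq, 250 bases before to 50 bases after the annotated start, build GRCm38.p6, and 28 of the 34 genes had an entry. The motifs of 2 kinds of receptor that PGC-1alpha works with were searched on both strands. AAGGTCA, the half-site of estrogen-related receptors, was held by 2 of 28 genes, or 7.14%, beside 4.48% of 15614 named genes of the array. The PPAR element DR1, spelled AGGTCA, then any base, then AGGTCA again, was in 0 of 28 when up to 1 mismatch was allowed, beside 0.551% of the named genes. The letters of DR1 also hold the AGGTCA part of the first motif. Acadm and Acsl6 are shown because they hold the half-site, in capitals, which reads TGACCTT since it lies on the other strand. Its first base lay 249 bases before the start in Acadm, and 189 and 167 bases before it in Acsl6. Acadvl is shown because it rose most in both models and Acss1 because it fell in the knockout, and neither holds either motif. The Acadm window is chr3:153944594-153944893 on the minus strand, that of Acsl6 chr11:54303574-54303873 on the plus strand, that of Acadvl chr11:70015379-70015678 on the minus strand and that of Acss1 chr2:150668191-150668490 on the minus strand.
Acadm: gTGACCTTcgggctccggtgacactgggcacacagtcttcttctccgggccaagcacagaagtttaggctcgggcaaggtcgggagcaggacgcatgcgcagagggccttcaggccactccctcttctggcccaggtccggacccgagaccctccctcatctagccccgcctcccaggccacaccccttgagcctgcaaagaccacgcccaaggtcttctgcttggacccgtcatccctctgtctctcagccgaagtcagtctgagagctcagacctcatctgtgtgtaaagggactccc
Acsl6: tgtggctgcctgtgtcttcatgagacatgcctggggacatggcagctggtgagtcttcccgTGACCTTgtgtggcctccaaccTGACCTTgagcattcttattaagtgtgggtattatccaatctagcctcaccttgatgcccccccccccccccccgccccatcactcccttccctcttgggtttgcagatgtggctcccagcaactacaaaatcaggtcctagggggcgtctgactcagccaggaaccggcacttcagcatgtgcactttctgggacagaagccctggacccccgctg
Acadvl: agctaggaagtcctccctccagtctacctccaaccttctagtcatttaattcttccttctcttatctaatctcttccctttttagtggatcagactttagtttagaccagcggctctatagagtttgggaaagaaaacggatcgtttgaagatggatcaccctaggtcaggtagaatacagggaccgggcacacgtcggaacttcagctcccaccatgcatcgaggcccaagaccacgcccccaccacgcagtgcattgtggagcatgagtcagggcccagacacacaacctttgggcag
Acss1: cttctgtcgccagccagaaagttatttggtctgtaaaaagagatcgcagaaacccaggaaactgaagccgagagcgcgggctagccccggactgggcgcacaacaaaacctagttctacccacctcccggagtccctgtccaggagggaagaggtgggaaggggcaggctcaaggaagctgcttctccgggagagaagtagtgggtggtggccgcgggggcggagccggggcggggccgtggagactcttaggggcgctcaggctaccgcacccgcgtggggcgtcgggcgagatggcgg

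Most genes of the uptake group rose in the transgenic mice and none was called in the knockout. Those that rose include Angptl4, whose product inhibits lipoprotein lipase, while the lipase gene Lpl was not called. Of 6 genes 5 rose in PGC-1alpha-mTg, at a median of 0.51, where 11.9% of all genes rose. In NCoR1-MKO 0 of 6 were called by limma, with 0 also at an unadjusted p under 0.05 and a median of 0.046. Of all genes 2.63% were called there in either direction, so 0 of 6 is near that share. The fatty acid translocase gene Cd36 read 11.54, 11.57, 11.67, 11.62 and 11.71 in PGC-1alpha-mTg, against 10.88, 10.74, 10.82, 10.88 and 11.03 in WT. No transgenic array reached down to the WT range, and the gene rose by 0.75 ± 0.075 (adjusted p = 5.8e-08), or 1.68-fold. In the other cohort Cd36 read 11.41, 11.33, 11.41, 11.09 and 11.55 in NCoR1-MKO, against 11.39, 11.44, 11.08, 11.23 and 11.27 in CON, groups that overlapped across most of their range, with a change of 0.074 ± 0.075 (adjusted p = 0.836). The interval of that change ran from -0.082 to 0.23 (95%).

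The fatty acid transport protein gene Slc27a1 behaved likewise. Its values were 10.71, 10.52, 10.58, 10.60 and 10.85 in PGC-1alpha-mTg, against 9.84, 9.99, 9.999, 9.96 and 10.05 in WT, with a clear gap between the groups. It rose by 0.68 ± 0.065 (adjusted p = 2.41e-08), and in the knockout, at 10.69, 10.68, 10.73, 10.68 and 10.74 in NCoR1-MKO, against 10.89, 10.76, 10.58, 10.70 and 10.53 in CON, it changed by 0.017 ± 0.065 (adjusted p = 0.976). Slc27a4, a second member of that transporter family, was 7.11, 7.14, 7.40, 7.37 and 7.39 in PGC-1alpha-mTg, against 7.14, 7.13, 7.03, 7.16 and 7.09 in WT, so that 3 transgenic arrays stood above all WT arrays and the others lay among them. Its rise was small, at 0.17 ± 0.060 (adjusted p = 0.0361). It missed the threshold when WT 1, 2, 3 or 5 or PGC-1alpha-mTg 3, 4 or 5 was left out (adjusted p up to 0.112). In the knockout Slc27a4 read 6.93, 7.14, 7.11, 7.18 and 7.14 in NCoR1-MKO, against 7.18, 7.24, 7.14, 7.22 and 7.14 in CON, and NCoR1-MKO 1 lay below all the others. The change was -0.082 ± 0.060 (adjusted p = 0.705).

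Fabp3 encodes the fatty acid binding protein of heart and muscle, which carries fatty acids through the cytosol. It read 12.03, 12.10, 12.09, 12.11 and 12.25 in PGC-1alpha-mTg, against 11.64, 11.43, 11.48, 11.52 and 11.74 in WT, without overlap, and rose by 0.55 ± 0.085 (adjusted p = 2.57e-05). A dimmer probe set of Fabp3 gave 0.62 ± 0.083. Fabp3 in the other cohort was 11.77, 11.74, 11.72, 11.59 and 12.01 in NCoR1-MKO, against 11.79, 11.79, 11.30, 11.53 and 11.59 in CON, with CON 3 lowest and NCoR1-MKO 5 highest, and its change of 0.17 ± 0.085 (adjusted p = 0.482) did not pass.

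Lpl, the lipase that frees fatty acids from lipoproteins, was among the members that did not pass in either model. It read 10.89, 11.27, 11.25, 11.35 and 11.26 in PGC-1alpha-mTg, against 11.14, 10.86, 10.96, 11.02 and 11.06 in WT. PGC-1alpha-mTg 1 was as low as the WT arrays and the other 4 stood above all of them. The change was 0.19 ± 0.077 (adjusted p = 0.0656), and it was called without PGC-1alpha-mTg 1 (0.27, adjusted p = 0.00291) or without WT 1 (adjusted p = 0.0458). In the knockout Lpl was 11.31, 11.21, 11.39, 11.20 and 11.41 in NCoR1-MKO, against 11.39, 11.50, 11.19, 11.26 and 11.28 in CON, which overlapped throughout, with a change of -0.020 ± 0.077 (adjusted p = 0.976). Angptl4, a secreted inhibitor of lipoprotein lipase, rose by 0.47 ± 0.14 (adjusted p = 0.017) in PGC-1alpha-mTg, where 4 of 5 arrays exceeded every WT array, at 5.89 to 6.65 against 5.67 to 5.97 in WT. It was not called without PGC-1alpha-mTg 1 or 3 (adjusted p up to 0.0642), and changed by 0.10 ± 0.14 (adjusted p = 0.91) in the knockout.

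Capillary cells express Cd36 too, and fat cells express Cd36 and Lpl, so the markers of both are given beside these genes. All 10 endothelial markers had positive changes in both models. In PGC-1alpha-mTg 8 of 10 rose, with a median of 0.40, and the list mean of single arrays lay 0.27 to 0.50 above the WT mean, against -0.08 to 0.12 in WT. In NCoR1-MKO 1 of 10 rose, with a median of 0.20 and list means of 0.09 to 0.42, against -0.11 to 0.10 in CON. Of all genes tested 11.9% rose in PGC-1alpha-mTg and 1.31% in NCoR1-MKO. Group means of single endothelial markers ran from 7.55 to 10.46. Of 7 adipocyte markers 0 were called in the knockout (1 at an unadjusted p under 0.05 in limma), and in the transgenic mice Car3, which muscle itself expresses, fell by -0.81 ± 0.043 on the log2 scale with no other called. The adipocyte list mean of NCoR1-MKO 5 was 0.48 and that of CON 1 was 0.52, the highest of each group. The part of these cells in the uptake results was not tested.

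Activation of fatty acids was represented by Acsl6, an acyl-CoA synthetase, since Acsl1 was not analysed here. It read 8.66, 8.37, 8.52, 8.45 and 8.59 in PGC-1alpha-mTg, against 8.13, 8.08, 8.04, 7.97 and 8.12 in WT and rose by 0.45 ± 0.066 (adjusted p = 1.18e-05), with no overlap of the groups. In the knockout Acsl6 was 8.32, 8.33, 8.22, 8.11 and 8.06 in NCoR1-MKO, against 8.24, 8.41, 8.46, 8.16 and 8.31 in CON, with a change of -0.11 ± 0.066 (adjusted p = 0.603), so that its sign there was opposite to that of most members without passing the test. The difference between both effects was 0.56 ± 0.093 (adjusted p = 0.000153).

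In the carnitine shuttle the steps did not move alike. Slc25a20, the carrier that exchanges acylcarnitine for carnitine across the inner membrane, read 10.003, 9.94, 10.12, 10.01 and 10.15 in NCoR1-MKO, against 9.80, 9.87, 9.66, 9.70 and 9.68 in CON. Each knockout array exceeded each control array, and the gene rose by 0.30 ± 0.058 (adjusted p = 0.00327), or 1.23-fold. Its transgenic-cohort values were 10.73, 10.80, 10.91, 10.85 and 11.05 in PGC-1alpha-mTg, against 9.92, 9.95, 9.90, 9.91 and 10.03 in WT, with a wide gap, and rose by 0.93 ± 0.058 (adjusted p = 2.75e-11), or 1.90-fold. Cpt2, which returns the acyl group to coenzyme A inside the mitochondrion, was 10.34, 10.44, 10.44, 10.41 and 10.57 in PGC-1alpha-mTg, against 9.66, 9.73, 9.52, 9.63 and 9.67 in WT and rose by 0.80 ± 0.056 (adjusted p = 1.94e-10). Knockout-cohort values of Cpt2 were 10.02, 10.05, 10.12, 10.06 and 10.31 in NCoR1-MKO, against 10.01, 9.96, 9.86, 9.90 and 9.90 in CON. All knockout arrays lay above all control arrays by a narrow margin, and the change of 0.18 ± 0.056 (adjusted p = 0.0913) did not pass.

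Cpt1a, the outer-membrane transferase best known from liver, was not called in either model. Its transgenic values ran from 7.75 to 8.33, against 7.70 to 7.88 in WT, and its changes were 0.24 ± 0.097 (adjusted p = 0.0681) in PGC-1alpha-mTg and 0.076 ± 0.097 (adjusted p = 0.887) in NCoR1-MKO. The transgenic change was called when PGC-1alpha-mTg 2 or 4 was left out (adjusted p = 0.0279 and 0.0139), and with quantile normalization across the 20 arrays (0.29, adjusted p = 0.0289). Crat, which moves short acyl groups onto carnitine, read 11.97, 11.94, 11.96, 11.99 and 12.004 in PGC-1alpha-mTg, against 11.72, 11.78, 11.76, 11.78 and 11.79 in WT. Its groups were tight and apart, so that a small rise of 0.21 ± 0.033 (adjusted p = 3.67e-05) was called. In the knockout Crat was 12.48, 12.46, 12.46, 12.49 and 12.44 in NCoR1-MKO, against 12.43, 12.44, 12.38, 12.44 and 12.40 in CON, with a change of 0.047 ± 0.033 (adjusted p = 0.693). Mlycd removes malonyl-CoA, the inhibitor of carnitine palmitoyltransferase 1. It read 8.87, 8.65, 8.90, 8.80 and 9.11 in PGC-1alpha-mTg, against 8.43, 8.27, 8.28, 8.35 and 8.48 in WT and rose by 0.51 ± 0.066 (adjusted p = 2.53e-06), without overlap. In the knockout cohort it was 8.52, 8.57, 8.67, 8.63 and 8.61 in NCoR1-MKO, against 8.48, 8.54, 8.32, 8.48 and 8.46 in CON, where 4 knockout arrays exceeded every control array, and the change of 0.14 ± 0.066 (adjusted p = 0.39) did not pass.

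All 9 genes of the beta-oxidation cycle rose in PGC-1alpha-mTg, by 0.41 to 1.19, beside 11.9% of all genes tested. In NCoR1-MKO 4 of 9 rose, beside 1.31% of all genes, and changes ran from -0.057 to 0.34. The acyl-CoA dehydrogenases take the first step and divide the work by chain length, so they are given from long to short. Acadvl, the very long chain enzyme, read 10.33, 10.22, 10.34, 10.23 and 10.25 in NCoR1-MKO, against 9.96, 10.06, 9.83, 9.92 and 9.91 in CON. The groups lay apart, and Acadvl rose by 0.34 ± 0.050 (adjusted p = 0.000234), or 1.27-fold. In the transgenic cohort it was 10.50, 10.49, 10.53, 10.54 and 10.74 in PGC-1alpha-mTg, against 9.39, 9.37, 9.36, 9.34 and 9.42 in WT, where PGC-1alpha-mTg 5 stood above the other 4, and rose by 1.19 ± 0.050 (adjusted p = 9.74e-14), or 2.27-fold. Its rise was the largest of the 34 genes in each model. Without PGC-1alpha-mTg 5 the transgenic rise was 1.14.

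The long chain gene Acadl read 11.32, 11.28, 11.33, 11.32 and 11.38 in PGC-1alpha-mTg, against 10.34, 10.31, 10.22, 10.40 and 10.45 in WT. The transgenic arrays lay close together and far above WT, and Acadl rose by 0.98 ± 0.068 (adjusted p = 1.35e-10). In the knockout cohort it read 10.57, 10.46, 10.59, 10.39 and 10.72 in NCoR1-MKO, against 10.45, 10.49, 10.13, 10.25 and 10.20 in CON, where CON 1 and CON 2 overlapped the knockout arrays, and its change of 0.24 ± 0.068 (adjusted p = 0.0569) missed the threshold. It was called without CON 1, CON 2 or NCoR1-MKO 4 (adjusted p = 0.0332, 0.0202 and 0.0322). The medium chain gene Acadm was 12.14, 12.02, 12.07, 12.02 and 12.20 in PGC-1alpha-mTg, against 11.69, 11.74, 11.58, 11.60 and 11.73 in WT, without overlap, and rose by 0.42 ± 0.050 (adjusted p = 5.84e-07). In the knockout it read 11.71, 11.66, 11.68, 11.64 and 11.68 in NCoR1-MKO, against 11.84, 11.83, 11.64, 11.64 and 11.71 in CON, all 5 within the range of CON, with a change of -0.057 ± 0.050 (adjusted p = 0.789) and a 95% interval from -0.16 to 0.046. The short chain gene Acads read 9.96, 9.94, 9.99, 9.85 and 9.89 in PGC-1alpha-mTg, against 9.36, 9.33, 9.23, 9.20 and 9.30 in WT and rose by 0.64 ± 0.049 (adjusted p = 6.03e-10). Its knockout-cohort values were 9.33, 9.41, 9.49, 9.42 and 9.31 in NCoR1-MKO, against 9.44, 9.35, 9.26, 9.45 and 9.31 in CON, largely overlapping, with a change of 0.031 ± 0.049 (adjusted p = 0.921) and an interval from -0.070 to 0.13. Thus Acadvl rose in the knockout, while the other dehydrogenases did not pass. The difference between these genes within the knockout was not tested.

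**Figure D2:**
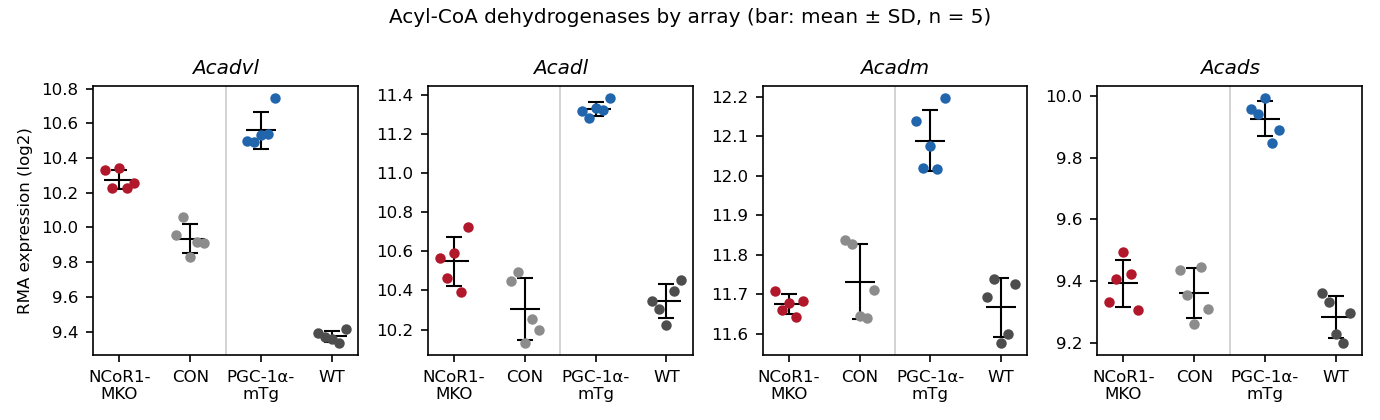
RMA expression (log2, vertical axis) of the acyl-CoA dehydrogenases from long to short chain length, 1 point an array and bars for mean ± SD (n = 5). NCoR1-MKO stands apart from CON in Acadvl and overlaps it in Acadl, Acadm and Acads, while PGC-1alpha-mTg stands apart from WT in all 4. Levels of different genes or cohorts are not comparable.

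Hadha and Hadhb are the subunits of the trifunctional protein, which carries out the later steps on long chains. Hadha read 11.74, 11.70, 11.75, 11.75 and 11.90 in PGC-1alpha-mTg, against 11.41, 11.30, 11.29, 11.33 and 11.43 in WT, apart from each other and with PGC-1alpha-mTg 5 highest, and rose by 0.42 ± 0.047 (adjusted p = 3.99e-07). Hadha in the knockout cohort was 11.92, 11.87, 11.90, 11.85 and 11.92 in NCoR1-MKO, against 11.87, 11.92, 11.71, 11.75 and 11.76 in CON, with overlap, and changed by 0.092 ± 0.047 (adjusted p = 0.482). Hadhb was 11.32, 11.40, 11.41, 11.45 and 11.50 in PGC-1alpha-mTg, against 10.95, 10.86, 10.87, 10.98 and 11.03 in WT and rose by 0.48 ± 0.059 (adjusted p = 1.21e-06), which a dimmer probe set of the gene matched at 0.48 ± 0.061. In the knockout Hadhb read 11.18, 11.01, 11.18, 10.93 and 11.20 in NCoR1-MKO, against 10.93, 11.05, 10.78, 10.90 and 10.89 in CON, where 3 knockout arrays exceeded all controls, and changed by 0.19 ± 0.059 (adjusted p = 0.107). Without NCoR1-MKO 4 the adjusted p was 0.0343.

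Hadh, Echs1 and Acaa2, which act in the matrix on later steps of the cycle, were called in both models. Hadh, the hydroxyacyl-CoA dehydrogenase, read 12.04, 12.01, 12.13, 11.98 and 12.22 in NCoR1-MKO, against 11.95, 11.98, 11.81, 11.83 and 11.82 in CON, so that 4 knockout arrays lay above all controls, and rose by 0.20 ± 0.047 (adjusted p = 0.0214). Hadh in the transgenic cohort was 12.11, 12.11, 12.15, 12.12 and 12.13 in PGC-1alpha-mTg, against 11.73, 11.69, 11.68, 11.74 and 11.73 in WT, tight and apart, and rose by 0.41 ± 0.047 (adjusted p = 3.95e-07). Echs1, the short chain enoyl-CoA hydratase, read 9.58, 9.51, 9.63, 9.37 and 9.62 in NCoR1-MKO, against 9.40, 9.41, 9.20, 9.22 and 9.39 in CON, with NCoR1-MKO 4 within the control range, and rose by 0.22 ± 0.056 (adjusted p = 0.0352). In the transgenic cohort it was 10.61, 10.56, 10.59, 10.68 and 10.77 in PGC-1alpha-mTg, against 9.96, 9.99, 9.95, 9.99 and 10.03 in WT and rose by 0.66 ± 0.056 (adjusted p = 3.91e-09).

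The thiolase gene Acaa2 read 11.62, 11.62, 11.69, 11.60 and 11.79 in NCoR1-MKO, against 11.47, 11.58, 11.16, 11.31 and 11.32 in CON. All knockout arrays were above all controls, CON 2 being close to the lowest of them, and it rose by 0.29 ± 0.062 (adjusted p = 0.00853). Acaa2 in the transgenic cohort was 12.15, 12.13, 12.15, 12.15 and 12.29 in PGC-1alpha-mTg, against 11.44, 11.47, 11.47, 11.55 and 11.55 in WT, with PGC-1alpha-mTg 5 above the other 4, and rose by 0.68 ± 0.062 (adjusted p = 1.24e-08). The knockout calls of Hadh and Echs1 were less firm than that of Acaa2, since single arrays decided them. The call of Hadh was lost without NCoR1-MKO 3 or 5 and without CON 3, 4 or 5 (adjusted p up to 0.0707). That of Echs1 was lost without NCoR1-MKO 1, 2, 3 or 5 and without CON 3 or 4 (adjusted p up to 0.117). 

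Enzymes that prepare unsaturated chains for the cycle all rose with PGC-1alpha, where 11.9% of all genes rose. In the knockout 0 of 3 were called by limma, although 2 had an unadjusted p under 0.05. Of all genes 2.63% were called there in either direction, so 0 of 3 is near that share. Decr1, the dienoyl-CoA reductase, read 10.65, 10.55, 10.67, 10.57 and 10.72 in PGC-1alpha-mTg, against 9.95, 9.89, 9.85, 9.88 and 9.98 in WT, without overlap, and rose by 0.72 ± 0.059 (adjusted p = 2.18e-09). Its knockout-cohort values were 10.15, 10.08, 10.09, 10.03 and 10.29 in NCoR1-MKO, against 10.07, 10.09, 9.80, 9.90 and 9.83 in CON, with CON 1 and CON 2 among the knockout arrays, and changed by 0.19 ± 0.059 (adjusted p = 0.0931), or with an adjusted p of 0.0434 without CON 2. Eci1, an enoyl-CoA isomerase, read 10.44, 10.55, 10.49, 10.46 and 10.67 in PGC-1alpha-mTg, against 10.04, 10.02, 9.89, 9.95 and 10.06 in WT and rose by 0.53 ± 0.047 (adjusted p = 8.3e-09). In the knockout Eci1 was 10.57, 10.54, 10.58, 10.51 and 10.58 in NCoR1-MKO, against 10.41, 10.47, 10.33, 10.43 and 10.38 in CON, all knockout arrays above all controls by a small margin, and the change of 0.16 ± 0.047 (adjusted p = 0.0855) did not pass. Without PGC-1alpha-mTg 5, which enters the shared spread, its adjusted p was 0.039. Eci2, a second isomerase found in mitochondria and peroxisomes, was 9.40, 9.24, 9.31, 9.23 and 9.58 in PGC-1alpha-mTg, against 8.59, 8.66, 8.75, 8.58 and 8.68 in WT and rose by 0.70 ± 0.068 (adjusted p = 3.47e-08). Its knockout values were 8.88, 8.77, 8.94, 8.76 and 9.13 in NCoR1-MKO, against 8.80, 8.79, 8.70, 8.75 and 8.80 in CON, which overlapped, with a change of 0.13 ± 0.068 (adjusted p = 0.493).

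Of the 3 genes for the electron acceptors of the dehydrogenases, 3 rose in PGC-1alpha-mTg and 2 in NCoR1-MKO. Of all genes tested 11.9% and 1.31% rose. Etfdh, the oxidoreductase that hands electrons to ubiquinone, read 10.67, 10.51, 10.68, 10.37 and 10.68 in NCoR1-MKO, against 10.28, 10.38, 10.25, 10.20 and 10.27 in CON. Only NCoR1-MKO 4 fell within the control range, and Etfdh rose by 0.30 ± 0.060 (adjusted p = 0.00431), or 1.23-fold. Its transgenic-cohort values were 11.27, 11.17, 11.26, 11.22 and 11.38 in PGC-1alpha-mTg, against 10.43, 10.45, 10.32, 10.41 and 10.55 in WT and rose by 0.83 ± 0.060 (adjusted p = 2.75e-10), or 1.77-fold. Etfa, the alpha subunit of electron transfer flavoprotein, read 10.43, 10.27, 10.36, 10.39 and 10.44 in NCoR1-MKO, against 10.21, 10.31, 9.98, 9.97 and 10.11 in CON, with CON 2 above the lowest knockout array, and rose by 0.26 ± 0.065 (adjusted p = 0.027). Its transgenic values were 11.04, 10.91, 10.96, 10.99 and 11.09 in PGC-1alpha-mTg, against 10.48, 10.26, 10.31, 10.39 and 10.55 in WT, and the rise was 0.60 ± 0.065 (adjusted p = 1.64e-07). The knockout call of Etfa was lost without NCoR1-MKO 1, 3, 4 or 5 and without CON 3, 4 or 5 (adjusted p up to 0.0929). Etfb, the beta subunit, was 11.98, 11.98, 11.998, 11.93 and 12.09 in PGC-1alpha-mTg, against 11.46, 11.41, 11.37, 11.40 and 11.44 in WT and rose by 0.58 ± 0.042 (adjusted p = 2.69e-10). For the knockout cohort Etfb read 11.97, 11.92, 11.94, 11.88 and 11.99 in NCoR1-MKO, against 11.84, 11.88, 11.69, 11.78 and 11.83 in CON, where 4 knockout arrays exceeded all controls, and its change of 0.13 ± 0.042 (adjusted p = 0.102) did not pass.

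Thioesterases release free fatty acids from coenzyme A, and UCP3 is an inner-membrane carrier of muscle that responds to fatty acids. Acot13 read 9.73, 9.63, 9.69, 9.60 and 9.62 in NCoR1-MKO, against 9.56, 9.50, 9.43, 9.48 and 9.38 in CON. The arrays did not overlap, and Acot13 rose by 0.18 ± 0.045 (adjusted p = 0.0253), a call lost without CON 3, CON 5, NCoR1-MKO 1 or NCoR1-MKO 3 (adjusted p up to 0.0834). In the transgenic cohort it was 10.76, 10.89, 10.87, 10.78 and 10.93 in PGC-1alpha-mTg, against 10.08, 9.98, 10.02, 10.002 and 10.03 in WT, and rose by 0.82 ± 0.045 (adjusted p = 3.82e-12), or 1.77-fold. The mitochondrial gene Acot2 read 10.93, 10.84, 11.14, 11.17 and 11.10 in PGC-1alpha-mTg, against 10.35, 10.33, 10.52, 10.53 and 10.55 in WT and rose by 0.58 ± 0.074 (adjusted p = 1.98e-06). In the knockout it was 10.71, 10.78, 10.90, 10.67 and 10.996 in NCoR1-MKO, against 10.88, 10.93, 10.64, 10.81 and 10.82 in CON, wholly overlapping, with a change of -0.0056 ± 0.074 (adjusted p = 0.993). The cytosolic gene Acot1 is a close copy of Acot2, and probes of such copies can bind the same transcript. It was dim, at 5.07 to 5.38 in PGC-1alpha-mTg against 4.88 to 4.99 in WT, and rose by 0.28 ± 0.072 (adjusted p = 0.00553), while in the knockout it changed by 0.097 ± 0.072 (adjusted p = 0.725).

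Ucp3 had the widest spread of the members among WT arrays. It read 10.75, 10.51, 10.90, 10.46 and 10.97 in PGC-1alpha-mTg, against 9.76, 9.99, 9.36, 9.45 and 10.26 in WT, without overlap, and rose by 0.95 ± 0.16 (adjusted p = 4.69e-05), or 1.94-fold. In the knockout cohort Ucp3 was 10.30, 10.51, 10.44, 10.17 and 10.42 in NCoR1-MKO, against 9.97, 10.10, 9.99, 10.06 and 10.75 in CON. CON 5 stood above the other 4 controls, which lay at or below 10.10. The change was 0.20 ± 0.16 (adjusted p = 0.747), and 0.34 (adjusted p = 0.309) without CON 5. That array also had the highest CON values of Angptl4 (6.72, against 5.94 to 6.42 in the other CON arrays), of Cpt1a (8.62, against 8.16 to 8.52) and of Pdk4, the kinase that restrains pyruvate dehydrogenase (12.91, against 12.46 to 12.82). Pdk4 was not a member and lies outside the rule by which genes are named. Angptl4, Cpt1a and Pdk4 were singled out here after their values were seen, and not all members followed. Cd36 read 11.27 in CON 5 and 11.44 in CON 2, and Slc27a1 was lowest of the CON arrays in CON 5 at 10.53.

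**Figure D3:**
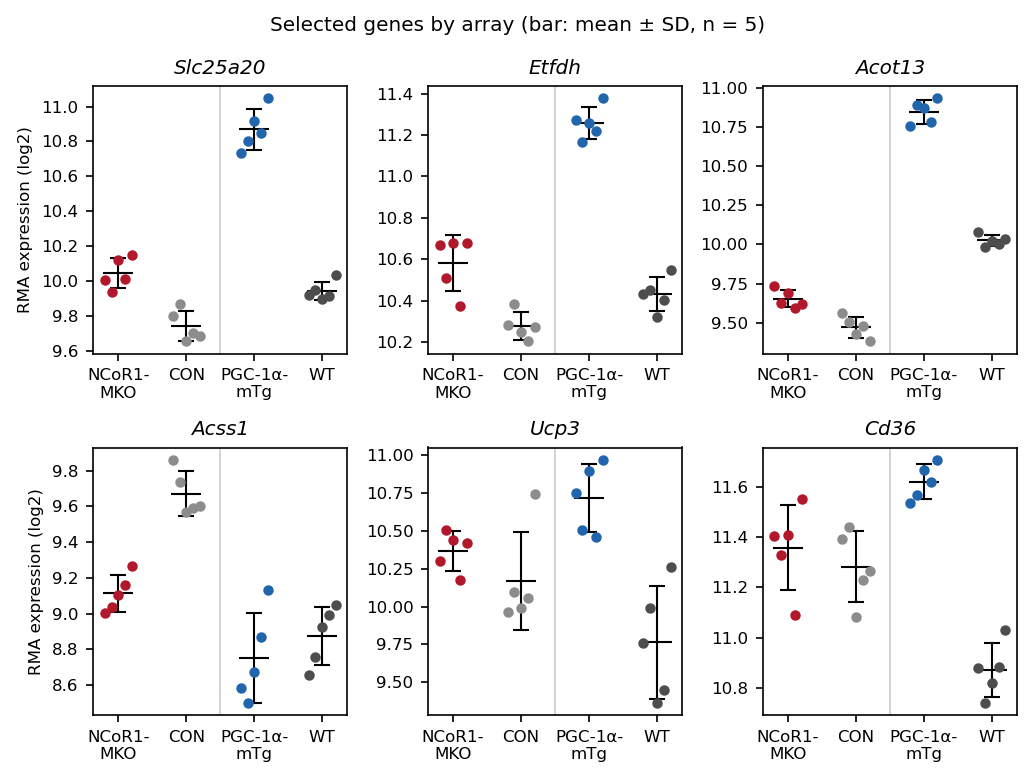
RMA expression (log2, vertical axis) of 6 genes, 1 point an array and bars for mean ± SD (n = 5). Slc25a20 and Acot13 separate both models from their controls, Acss1 lies wholly below CON in NCoR1-MKO, CON 5 stands out in Ucp3, and Cd36 overlaps in the knockout cohort and separates in the transgenic one.

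Acetate and ketone body use gave the exception in the knockout. Acss1, the mitochondrial enzyme that turns acetate into acetyl-CoA, read 9.003, 9.04, 9.10, 9.16 and 9.27 in NCoR1-MKO, against 9.86, 9.73, 9.57, 9.59 and 9.60 in CON. Every knockout array was below every control array, and Acss1 fell to 0.68 of the CON level, with a log2 change of -0.56 ± 0.098 (adjusted p = 0.00139). In the transgenic cohort it read 8.59, 8.50, 8.67, 8.87 and 9.13 in PGC-1alpha-mTg, against 8.65, 8.76, 8.93, 8.99 and 9.05 in WT, overlapping, with a change of -0.12 ± 0.098 (adjusted p = 0.396) and a 95% interval from -0.33 to 0.080. It was the member with a negative sign in the transgenic mice. Its effects differed between the models by 0.44 ± 0.14 (adjusted p = 0.0347), a call lost without CON 1 or 2, NCoR1-MKO 1, 2 or 3, WT 1 or 2 or PGC-1alpha-mTg 4 (adjusted p up to 0.0721). Acss2, the cytosolic and nuclear counterpart that was not a member, rose by 0.35 ± 0.070 in PGC-1alpha-mTg and changed by 0.011 ± 0.070 (adjusted p = 0.985) in NCoR1-MKO.

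Oxct1, which activates acetoacetate for oxidation, read 10.48, 10.80, 10.69, 10.81 and 10.68 in PGC-1alpha-mTg, against 10.22, 10.02, 9.90, 10.02 and 10.16 in WT and rose by 0.63 ± 0.069 (adjusted p = 2.05e-07). Its knockout-cohort values were 10.48, 10.36, 10.51, 10.42 and 10.29 in NCoR1-MKO, against 10.20, 10.27, 10.01, 10.19 and 10.19 in CON, all knockout arrays above all controls with NCoR1-MKO 5 just over CON 2, and its change of 0.24 ± 0.069 (adjusted p = 0.0688) did not pass. Without NCoR1-MKO 5 or PGC-1alpha-mTg 1 the adjusted p was 0.0464 or 0.0395. Bdh1, the hydroxybutyrate dehydrogenase, was 8.40, 8.72, 8.71, 8.84 and 8.72 in PGC-1alpha-mTg, against 8.74, 8.31, 8.37, 8.35 and 8.66 in WT, where 3 WT arrays lay below every transgenic array and WT 1 was higher than all but PGC-1alpha-mTg 4. Its changes were 0.19 ± 0.093 (adjusted p = 0.141) in PGC-1alpha-mTg and -0.030 ± 0.093 (adjusted p = 0.971) in NCoR1-MKO, and neither was called. Leaving out WT 1 or PGC-1alpha-mTg 1 brought the transgenic change past the threshold (adjusted p = 0.0483 and 0.0355).

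Tested directly, the signed transgenic change was higher than the knockout change for most of the pathway. The difference was positive for all 34 genes, and 29 of them, or 85.3%, passed beside 6.66% of all genes tested, at a median of 0.44. None was called lower by limma, and 0 were lower at an unadjusted p under 0.05 (8.50% of all genes were called lower and 15.2% in either direction). The comparisons share no array but share each gene's estimate of the spread. For Acss1 the positive sign came from its fall in the knockout (-0.56), while its transgenic change of -0.12 was not called. The widest difference, that of Acadvl, was 0.85 ± 0.071 (adjusted p = 2.17e-08). Ucp3 followed with 0.76 ± 0.22 (adjusted p = 0.0207) and Acadl with 0.74 ± 0.096 (adjusted p = 6.98e-06). All 8 genes that rose in both models passed, so their rises were larger with PGC-1alpha. The 5 genes that did not pass were Lpl, Angptl4, Cpt1a, Acot1 and Bdh1, with differences of 0.21, 0.37, 0.17, 0.18 and 0.22. Their 95% intervals reached from -0.012 to 0.44 for Lpl and from -0.12 to 0.45 for Cpt1a. Leaving out single arrays lost the calls of Fabp3 (in 8 of 20 fits, adjusted p up to 0.0688), Hadh (8 of 20, up to 0.0654), Slc27a4 (15 of 20, up to 0.0934) and Acss1. That of Lpl was gained without PGC-1alpha-mTg 1 (adjusted p = 0.0292).

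Among 46 measured genes of fatty acid handling outside the list, 27 rose and 2 fell in PGC-1alpha-mTg, with a median of 0.26, where 11.9% of all genes rose and 16.1% fell. The triglyceride lipase gene Pnpla2 rose by 0.72 ± 0.054, Got2, whose product also binds fatty acids at the cell surface, by 0.54 ± 0.037, the lipase maturation gene Lmf1 by 0.52 ± 0.043 and Mcee, of propionate breakdown, by 0.49 ± 0.042. The carrier gene Slc25a34 had the largest rise of the list, 1.16 ± 0.10, and was chosen after its value was seen. Acsl4, a synthetase with a preference for arachidonic acid, and the branched short chain dehydrogenase gene Acadsb fell (-0.45 ± 0.052 and -0.24 ± 0.049). In NCoR1-MKO 3 rose and 3 fell, with a median of 0.031, where 1.31% of all genes rose and 1.32% fell. Pnpla2 rose by 0.36 ± 0.054 (adjusted p = 0.000232), the acyl-CoA binding protein gene Dbi by 0.19 ± 0.042 (adjusted p = 0.0112) and Acad8, of valine breakdown, by 0.19 ± 0.049 (adjusted p = 0.0339). Crot, the peroxisomal carnitine octanoyltransferase, fell by 0.28 on the log2 scale (adjusted p = 0.0046), Acsl4 by 0.21 (adjusted p = 0.0298) and Pcca, of propionyl-CoA breakdown, by 0.15 (adjusted p = 0.039). Of 7 other ketone and acetate genes 3 rose in PGC-1alpha-mTg, namely Acss2, Acat1 (0.43 ± 0.044) and the monocarboxylate transporter gene Slc16a1 (1.05 ± 0.096). In the knockout 0 of these 7 were called by limma, with 1 lower at an unadjusted p under 0.05.

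Of 24 measured regulators of the pathway 7 rose and 5 fell in PGC-1alpha-mTg, at a median of -0.046, where 11.9% of all genes rose and 16.1% fell. Beside Ppargc1a, the receptor genes Esrrb (1.35 ± 0.076) and Esrra (0.66 ± 0.046) rose, as did the mitochondrial deacetylase gene Sirt3 (1.04 ± 0.055). Ppara, a receptor for fatty acids that was singled out after its values were seen, rose by 0.49 ± 0.12 (adjusted p = 0.00253). Among its sister receptor genes Pparg rose by 0.52 ± 0.084 (adjusted p = 4.51e-05), and Ppard changed by -0.068 ± 0.046 (adjusted p = 0.305). Of the partner genes of these receptors Rxrg and Rxra fell (-0.45 ± 0.060 and -0.36 ± 0.062) and Rxrb rose (0.25 ± 0.050). Prkaa2 (-0.21 ± 0.041), Hdac3 (-0.20 ± 0.045) and Ncoa2 (-0.23 ± 0.054) were the other regulators that fell. Pparg, Ppard, Rxrb and Ncoa2 also lie outside the rule by which genes are named. In NCoR1-MKO, where 1.31% of all genes rose, 2 of 24 rose, Ppargc1b by 0.51 ± 0.12 (adjusted p = 0.0193) and Sirt3 by 0.21 ± 0.055 (adjusted p = 0.0354). None fell (4 were lower at an unadjusted p under 0.05 in limma). Ppara stood at -0.36 ± 0.12 (adjusted p = 0.127) there, and the difference of its effects was 0.84 ± 0.16 (adjusted p = 0.000828). For Pparg that difference was 0.46 ± 0.12 (adjusted p = 0.00841), and for Ppard it was -0.22 ± 0.065 (adjusted p = 0.0211).

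Averaged over the 34 genes, single arrays kept the order of the groups in the transgenic cohort and overlapped in the other. The mean lay 0.48 to 0.68 above the WT mean in PGC-1alpha-mTg, against -0.06 to 0.08 in WT. In NCoR1-MKO it was 0.02 to 0.18 above the CON mean, against -0.11 to 0.08 in CON, with CON 3 lowest. Slow-fibre markers, whose fibres oxidise more fat, did not follow these genes. Their list means were -1.16 to -0.37 in PGC-1alpha-mTg, against -0.21 to 0.30 in WT, and -1.42 to -0.23 in NCoR1-MKO, against -0.56 to 0.42 in CON. Of 8 slow-fibre markers 5 fell in PGC-1alpha-mTg and 2 in NCoR1-MKO. Of 9 fast-fibre markers 5 fell and 1, Myh1, rose in PGC-1alpha-mTg (0.32 ± 0.054), and 1, Mylpf, rose in NCoR1-MKO (0.14 ± 0.034). Over all genes tested 11.9% rose and 16.1% fell in PGC-1alpha-mTg, and 1.31% rose and 1.32% fell in NCoR1-MKO. The part of fibre types in the results was not tested. Both of the following exclusions were chosen after seeing the data. Without NCoR1-MKO 5 and CON 1, whose adipocyte markers were highest, 6 genes rose in the knockout and Acss1 fell. Without PGC-1alpha-mTg 2 and 3, which correlated most with each other and least with array 5, 29 rose in the transgenic mice.

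**Figure D4:**
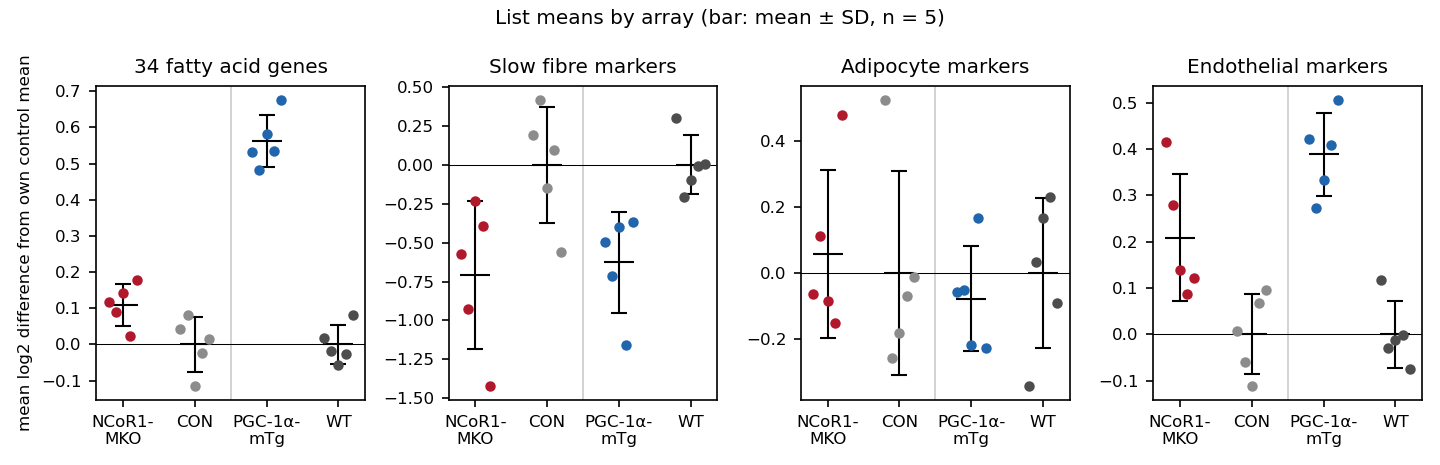
Mean log2 difference from the mean of the own controls (vertical axis) over the 34 genes and over slow fibre, adipocyte and endothelial markers, 1 point an array and bars for mean ± SD (n = 5). The 34 genes separate PGC-1alpha-mTg from WT, slow-fibre markers lie lower and endothelial markers higher in both models with overlap in the knockout cohort, and NCoR1-MKO 5 and CON 1 are high in adipocyte markers.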

How the data were processed

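The deposited values were log2 expression values of 35556 probe sets on 20 arrays, made by the authors with RMA, which corrects background, equalises array quantiles and summarises probe sets. RMA and the Partek software are named, with no version, per the submitters' processing notes. No genome build is given in the sources used here. Array quantiles differed by up to 0.063 on average within a cohort and by 0.169 to 0.228 between cohorts. The platform's annotation gave 1 symbol to 21789 probe sets, and these were kept, the brightest a gene over 20 arrays, which left 19938 genes with no filter on dim ones. The 4 group means were fitted to all arrays in limma 3.58.1 (R 4.3.3). Calls needed an adjusted p under 0.05, two-sided. The fit was tested on simulated data. The members, lists and alternatives were chosen with earlier results of these data known. Named genes follow a rule: all members, with values by array for those called in the knockout, against the trend, at the extremes of change or called for the difference, and up to 4 called genes a list and direction. Genes outside it are said to be so. Acsl1, Cpt1b and Ncor1 are not reported here.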

Additional observations from a re-analysis of the deposited data

Results flagged for a closer look

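Single arrays stood far from the other 4 of their group in 6 of 136 groups of 5, while chance alone flags about 1 in 20. For Acadvl, Hadha and Acaa2 it was PGC-1alpha-mTg 5, which was highest at 10.74, 11.90 and 12.29, against 10.49 to 10.54, 11.70 to 11.75 and 12.13 to 12.15 in the other 4. Without it their rises were 1.14, 0.38 and 0.65. Lpl was lowest in PGC-1alpha-mTg 1 at 10.89, against 11.25 to 11.35 in the others. Slc27a4 was lowest in NCoR1-MKO 1 at 6.93, against 7.11 to 7.18. Ucp3 was highest in CON 5 at 10.75, against 9.97 to 10.10.

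The transgenic effect differed from the knockout effect in 29 of 34 genes by the test of the difference itself (limma, adjusted p under 0.05), always in the positive direction. For Acss1 that sign came from its fall in the knockout. In the cycle of beta-oxidation the difference was 0.85 for Acadvl, 0.74 for Acadl, 0.61 for Acads, 0.48 for Acadm and 0.44 for Echs1. It was 0.39 for Acaa2, 0.32 for Hadha, 0.29 for Hadhb and 0.21 for Hadh. Among uptake and activation genes it was 0.67 for Cd36, 0.66 for Slc27a1, 0.56 for Acsl6, 0.38 for Fabp3 and 0.25 for Slc27a4. In the carnitine shuttle it was 0.62 for Slc25a20, 0.61 for Cpt2, 0.36 for Mlycd and 0.16 for Crat. For unsaturated chains it was 0.57 for Eci2, 0.53 for Decr1 and 0.37 for Eci1. In electron transfer it was 0.52 for Etfdh, 0.45 for Etfb and 0.34 for Etfa. It was 0.76 for Ucp3, 0.64 for Acot13, 0.59 for Acot2, 0.44 for Acss1 and 0.39 for Oxct1.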

How the results depend on the processing

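Members called higher in NCoR1-MKO numbered 8 as reported, 5 with each array centred on its median, 3 with only the 10 arrays of the comparison and 15 with a trended and robust prior. With 1 array left out they ranged from 4 to 10, and 1 member, Acss1, was called lower each time. Members called higher in PGC-1alpha-mTg ranged from 28 to 31 and those called for the difference from 25 to 30. With the replicate number as a block (replicate block) the counts were 6, 29 and 26, but the numbers do not pair the arrays, whose same-numbered deviations correlated at -0.232 to 0.196. Over all alternatives 18 of 34 members kept sign and call in the knockout, 29 in the transgenic mice and 28 for the difference. Signs turned in the knockout alone, for changes near 0: Slc27a1 was 0.017 and -0.0036 with array weights, and with 1 array left out it ran -0.024 to 0.067, Acot2 -0.052 to 0.030, Lpl -0.053 to 0.024 and Bdh1 -0.091 to 0.0083. The causes were not tested. All called genes numbered 525 in the knockout, of which 49.7 percent were higher, and 432 with arrays centred (41 percent higher). Background correction was not run, since the values hold none of the raw signal. The number of arrays and an unknown background limit small and dim changes.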
